A study of Homo sapiens with 24 samples.

Results

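The genes described here are the WNT ligands, their Frizzled receptors and co-receptors, and the secreted proteins that block or enhance WNT signalling. The families were chosen with earlier results of these data known, and their genes were taken by symbol: WNT, FZD, SFRP, DKK and RSPO followed by a number, with LRP5, LRP6, ROR1, ROR2 and WIF1. This gave 46 of the 57820 genes in the counts: 19 WNT ligands, 10 Frizzled receptors, 4 LRP or ROR co-receptors, 9 secreted antagonists and 4 R-spondins. RNA was sequenced from U2OS osteosarcoma cells in 24 libraries that formed 8 groups of 3. AID-DIvA U2OS cells, a U2OS derivative with an inducible nuclease, were WT or ID3-KO and were left untreated or received mocetinostat, an inhibitor of class I histone deacetylases, for 24 h and then recovered for 24 h without the drug. Cells labelled U2OS, WT or ID3-KO, were untreated or treated and are taken as collected before recovery. The methods describe collection before and after recovery, but neither they nor the sample labels assign a stage to these libraries, so it is inferred. No group carried a second drug in the labels, and all 8 groups are derivatives of 1 tumour cell line.

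The cell line label and the stage coincide, so the line and the recovery cannot be told apart in any contrast between them. The library names of the U2OS samples also carry the word DivA. Titles and treatment fields contradict each other for AID-DIvA, where the field gives the reverse of the title, and grouping here follows the titles. Were the fields right, every AID-DIvA treatment direction would turn. Under the titles, 690 of the 760 genes called in both lines in WT cells (90.8%) and 735 of 804 in ID3-KO cells (91.4%) changed in the same direction in AID-DIvA and U2OS, which share no libraries. Whether each ID3-KO line is 1 clone is not given in the sources used here.

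WNT proteins are secreted lipid-modified ligands that bind Frizzled receptors on the cell surface. With the co-receptors LRP5 and LRP6 they stabilise beta-catenin, which activates target genes with TCF and LEF factors, while ROR1 and ROR2 take part in branches that do not use beta-catenin. SFRP proteins and WIF1 bind WNT ligands, DKK1, DKK2 and DKK4 bind LRP5 and LRP6, and R-spondins keep Frizzled receptors on the surface through LGR receptors. In bone, WNT signalling promotes the formation of osteoblasts, and LRP5 is known for its influence on bone mass.

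Total counts lay between 37878751 and 76906266 fragments per library. ID3 itself, an inhibitor of E-protein transcription factors, was lower in untreated ID3-KO than in WT cells by 0.56 ± 0.07 (SE, log2) in AID-DIvA and by 1.03 ± 0.17 in U2OS, with adjusted p of 8.38e-06 and 0.00651 (edgeR), and its transcript was still counted in every ID3-KO library. Untreated ID3-KO libraries held 29.3 to 38.8 CPM (counts scaled to library size with TMM factors) of ID3 and untreated WT libraries 47.9 to 80.7 CPM. The highest was replicate 1 of untreated U2OS WT, where replicates 2 and 3 held 54.2 and 52.1 CPM, so the U2OS difference depends in part on replicate 1. The paper reports a check of the knockout by Western blot, which measures protein and not transcript. The mesenchymal markers COL1A1, SPARC, VIM, FN1 and COL5A2 were abundant, with COL1A1 between 824 and 2528 CPM, while COL1A2 reached at most 1.37 CPM and TWIST1 at most 0.0273 CPM. Of the 6 osteoblast markers SP7, BGLAP and IBSP reached at most 0.689 CPM and ALPL 6.95 CPM. RUNX2 was lower in treated than untreated U2OS cells (13.2 to 15.7 against 37.2 to 48.0 CPM in WT, 11.8 to 13.1 against 23.8 to 25.6 CPM in ID3-KO), while SPP1 was higher (55.9 to 61.01 against 28.0 to 30.4 CPM and 50.8 to 56.5 against 14.97 to 17.7 CPM). In AID-DIvA, treated against untreated, RUNX2 lay at 29.7 to 30.6 against 30.6 to 33.5 CPM in WT and 22.9 to 26.5 against 16.9 to 19.7 CPM in ID3-KO cells. SPP1 lay there at 36.3 to 39.2 against 33.5 to 34.9 CPM and 25.0 to 30.0 against 18.2 to 19.7 CPM. Both were lower in untreated ID3-KO than WT cells of each line. The blood markers PTPRC and CD3E reached at most 0.407 and 0.0404 CPM in any library, and the neural crest markers SOX10 and S100B each reached at most 0.476 CPM. The 2 epithelial markers summed to 5.41 to 7.56 CPM in untreated and 7.43 to 10.6 CPM in treated libraries, EPCAM giving most of it, and the endothelial marker CDH5 lay at 0.0566 to 0.222 CPM and 0.451 to 0.917 CPM. Their part in the results below was not tested. Replicate 1 of untreated U2OS WT stood apart over all genes. The mean chi-square per gene was 103 and 91.1 against replicates 2 and 3, and 4.32 between those 2. For some of the members that it moved, values without it are given beside the main ones. For other members and for the pathway genes they are not given.

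Promoter sequences are shown for 4 genes on which the results turn: DKK1, which rose in all 4 treatment comparisons, WNT5B, which fell in all 4, WNT9A, whose response differed by genotype, and LRP5, which was higher in ID3-KO cells. They are RefSeq promoters on GRCh38.p14, from 250 bases before to 50 bases after the transcription start, written 5′ to 3′ on the strand of the gene. Of the 46 genes, 32 matched the promoter table. Capitals mark TCF/LEF motifs (CTTTGAA or CTTTGTT or CTTTGAT or CTTTGTA) and E-boxes (CAGCTG or CAGGTG), searched on both strands. No marked stretch overlapped another.
DKK1 (chr10:52314031-52314330, plus strand): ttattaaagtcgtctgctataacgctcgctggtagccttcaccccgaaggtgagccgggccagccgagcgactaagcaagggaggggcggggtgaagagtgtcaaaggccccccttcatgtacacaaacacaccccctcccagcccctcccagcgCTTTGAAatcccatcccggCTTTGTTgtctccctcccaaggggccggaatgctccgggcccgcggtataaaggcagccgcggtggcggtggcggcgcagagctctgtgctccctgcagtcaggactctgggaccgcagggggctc
WNT5B, downstream start (chr12:1628981-1629280, plus strand): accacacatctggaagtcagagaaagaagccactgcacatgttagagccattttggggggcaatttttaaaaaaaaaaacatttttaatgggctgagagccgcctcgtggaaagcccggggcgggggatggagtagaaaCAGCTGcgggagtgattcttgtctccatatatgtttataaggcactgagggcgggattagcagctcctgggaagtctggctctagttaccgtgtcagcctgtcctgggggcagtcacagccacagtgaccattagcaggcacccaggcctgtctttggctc
WNT9A (chr1:227947883-227948182, minus strand): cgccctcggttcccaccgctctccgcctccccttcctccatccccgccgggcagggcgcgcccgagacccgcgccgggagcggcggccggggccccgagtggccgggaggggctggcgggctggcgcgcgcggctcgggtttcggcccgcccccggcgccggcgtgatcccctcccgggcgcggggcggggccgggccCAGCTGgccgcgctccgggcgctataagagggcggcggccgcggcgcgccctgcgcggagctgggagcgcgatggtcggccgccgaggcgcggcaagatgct
LRP5 (chr11:68312341-68312640, plus strand): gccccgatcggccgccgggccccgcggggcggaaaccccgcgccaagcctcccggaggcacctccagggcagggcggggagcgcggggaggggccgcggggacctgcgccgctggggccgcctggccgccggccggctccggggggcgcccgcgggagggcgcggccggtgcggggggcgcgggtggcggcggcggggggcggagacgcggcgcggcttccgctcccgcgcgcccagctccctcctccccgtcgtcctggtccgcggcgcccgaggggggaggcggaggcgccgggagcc

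The DKK1 promoter held 2 TCF/LEF motifs, CTTTGAA from 95 and CTTTGTT from 76 bases before the start. The downstream WNT5B promoter held CAGCTG from 111 bases and the WNT9A promoter from 52 bases before the start. The LRP5 promoter, 86.7% G and C, held none of the motifs, nor did the upstream WNT5B promoter. A TCF/LEF motif was present in 13.8% of all 35116 promoters and in 2 of the 35 promoters of members, those of DKK1 and WNT3. CAGCTG was present in 17.9% of all promoters and in 6 of the 35, and CAGGTG in 20.6% and in 7 of the 35. The median G and C content was 72% over the members' promoters and 58.7% over all promoters. These matches describe letters in the windows and not bound sites.

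Per kb of exonic length, the measure used to compare genes, DKK3 was the most abundant member, at a mean of 44.7 CPM per kb over the 24 libraries (range 32.8 to 62.4). DKK3 is a DKK family protein that, unlike DKK1, is not known for strong binding to LRP5 or LRP6. The Frizzled receptors FZD2 (17.4 CPM per kb, 8.88 to 28.98) and FZD6 (14.5, 9.57 to 20.6) and the co-receptor LRP6 (14.3, 6.92 to 19.9) followed, and their ranges overlapped. SFRP1, a secreted WNT-binding antagonist, stood at 10.7 CPM per kb and RSPO4, the only R-spondin with a mean above 1 CPM, at 8.33. The most abundant ligand was WNT10B at 4.22 CPM per kb (2.39 to 6.51), and the next, WNT3, had 2.68 with an overlapping range (1.98 to 3.30). All 10 Frizzled receptors and all 4 co-receptors averaged at least 1 CPM, as did 12 of the 19 ligands, 3 of the 9 antagonists and 1 of the 4 R-spondins. The other 16 members averaged below 1 CPM and rest on few counts. DKK4, RSPO2, SFRP2, SFRP5, WIF1, WNT8A and WNT9B were too low for any test.

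**Figure D1:**
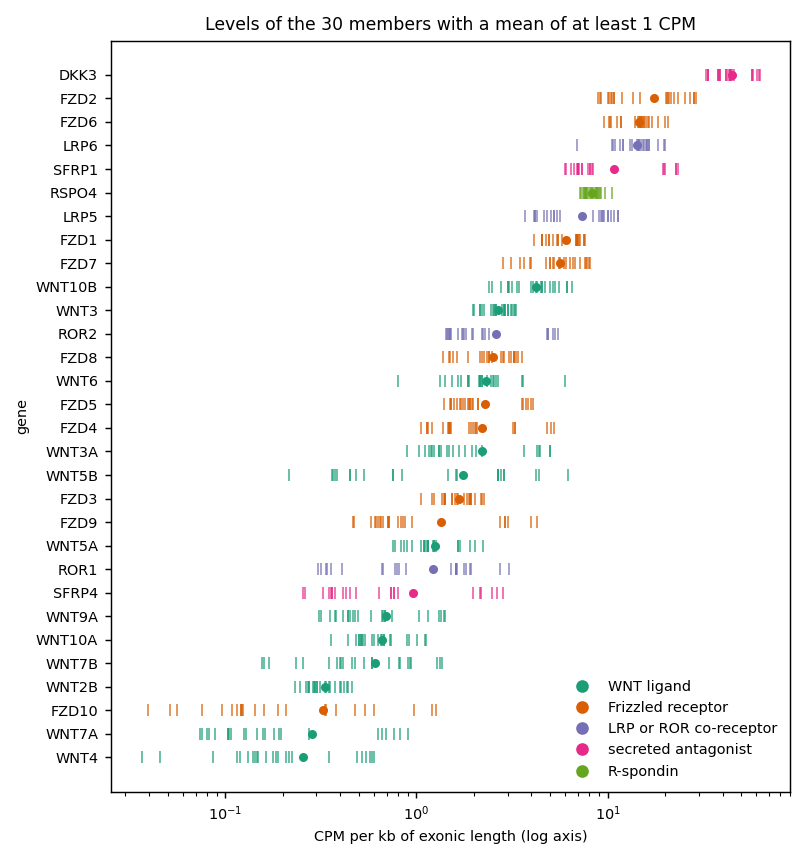
Levels of the 30 members with a mean of at least 1 CPM, in CPM per kb of exonic length on a log axis, where ticks are the 24 libraries, filled points are their mean and colours are roles. DKK3 lies at the top at 44.7 CPM per kb, and the receptors lie above most ligands.

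Counts from either strand were used, and for most members nearly all of them lay on the sense strand. WNT16 and SFRP5 had 0% of their counts there, WNT8B 32.8%, WNT11 51.3% and WNT2B 81.1%, so part or all of these counts came from the opposite strand. On sense counts alone WNT2B, a canonical ligand, was also called higher after recovery. It had 118, 121 and 122 sense counts in untreated and 249, 219 and 293 in treated AID-DIvA WT cells (log2 1.25 ± 0.11, adjusted p = 1.72e-06), and 131, 186 and 126 against 185, 343 and 221 in ID3-KO cells (1.08 ± 0.10, 2.94e-05). From either strand its changes, 0.76 ± 0.09 and 0.45 ± 0.11, stayed below the fold threshold. FZD4 had more fragments on its own strand than in the either-strand count (125%).

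The comparison of treated with untreated U2OS cells asked how the drug changed expression before recovery. In WT cells 17 of 38 members tested were called higher (44.7%, against 13.6% of all genes tested) and 3 lower (7.89% against 5.06%), where called means past 0.05 in adjusted p and beyond 1 in log2 fold change, either way. In ID3-KO cells 16 of 38 were called higher (42.1% against 14.6%) and 3 lower (7.89% against 5.77%). The median log2 fold change of the members was 0.62 in WT and 0.55 in ID3-KO cells, and that of all genes was 0.01 and 0.00. A filter on low counts set which members were tested, so a low member that the drug raised could enter through its treated libraries. In every called member the 3 treated and 3 untreated libraries did not overlap, which also held for 99.9% of all genes called in WT and 99.1% in ID3-KO cells and so is not particular to the members. In RNA from whole cultures, fewer cells that express a gene and less RNA per cell cannot be told apart. The counts were the same, 17 higher and 3 lower, without replicate 1 of untreated U2OS WT.

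Of 16 ligands tested before recovery, 7 were called higher in WT and 5 in ID3-KO cells, and WNT5B and WNT7B were lower in both. WNT5B, a ligand of non-canonical signalling, showed the largest fall. It stood at 26.8, 18.8 and 18.1 CPM in untreated WT cells and at 1.62, 0.932 and 1.94 CPM in treated ones, and at 11.4, 12.4 and 11.4 CPM against 1.93, 1.56 and 1.65 CPM in ID3-KO cells. All treated libraries of both genotypes lay near one another and far below the untreated ones. The fall was 3.79 ± 0.27 on the log2 scale in WT (adjusted p = 2.44e-05) and 2.77 ± 0.10 in ID3-KO cells (6.66e-17). Without replicate 1 of untreated U2OS WT, the highest of the 3, it was 3.56 ± 0.13 in WT. WNT7B, a ligand linked to osteoblast differentiation, fell from 4.07 to 4.69 CPM to 1.19 to 1.76 CPM in WT cells (log2 -1.59 ± 0.17, adjusted p = 0.000211) and from 2.09 to 2.42 CPM to 0.787 to 0.857 CPM in ID3-KO cells (-1.47 ± 0.16, 1.92e-08).

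WNT3A, a canonical ligand, rose from 6.47, 4.33 and 4.91 CPM to 14.6, 12.5 and 13.0 CPM in WT (log2 1.36 ± 0.16, adjusted p = 0.00029) and from 5.29, 5.99 and 5.72 CPM to 14.6, 10.7 and 12.8 CPM in ID3-KO cells (1.17 ± 0.10, 5.08e-10). The untreated and treated libraries of both genotypes fell into separate ranges. WNT7A, at 0.474 to 0.895 CPM in untreated WT cells, reached 2.88 to 3.76 CPM (log2 2.20 ± 0.23) and in ID3-KO cells went from 0.472 to 0.717 CPM to 3.02 to 4.15 CPM (2.60 ± 0.18), with adjusted p of 0.000176 and 8.22e-12. WNT4, a ligand of both branches, went from 0.666 to 1.01 CPM to 2.20 to 2.72 CPM in WT (1.57 ± 0.19, 0.00035) and from 0.945 to 1.57 CPM to 2.35 to 2.65 CPM in ID3-KO cells (1.14 ± 0.17, 2.91e-06). In ID3-KO cells the WNT4 change was 0.9997 without untreated replicate 2, just under the fold threshold. WNT9A rose in WT cells by 1.77 ± 0.14 (adjusted p = 3.7e-05). In ID3-KO cells its change, 0.78 ± 0.12, passed the adjusted p (4.26e-06) but not the fold threshold.

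WNT1 and WNT2, canonical ligands, were at or near 0 in untreated cells and were counted in every treated U2OS library. WNT1 had 1 count over the 3 untreated and 164 over the 3 treated WT libraries, a ratio of 162 with a 95% counting interval of 28.7 to 6453, and 5 against 127 in ID3-KO cells (ratio 23.5, 9.83 to 73.7). WNT2 had 5 against 88 counts in WT (ratio 17.4, 7.19 to 55.0) and 1 against 114 in ID3-KO cells (ratio 106, 18.6 to 4209). These intervals are exact, rest on the split of the counts and cover counting error only. Treated levels stayed below 1 CPM, at 0.790 to 0.932 CPM for WNT1 in WT and 0.424 to 0.807 CPM for WNT2 in ID3-KO cells. WNT8B was called higher in WT cells (log2 1.24 ± 0.30, adjusted p = 0.0101), from 0.165 to 0.232 CPM to 0.397 to 0.476 CPM. With 32.8% of its counts on the sense strand, it was too low to be tested from sense counts alone.

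**Figure D2:**
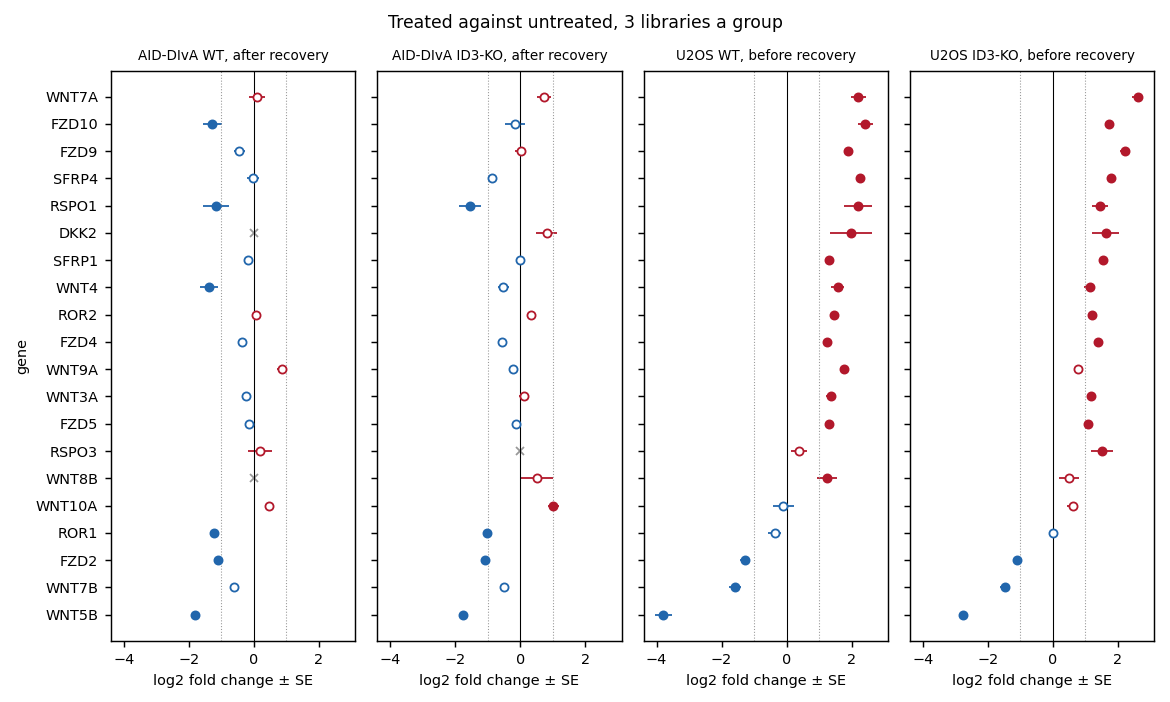
Log2 fold change with its SE, treated against untreated, for 20 members called in at least 1 of the 4 treatment comparisons, 1 panel per comparison; filled points were called, open points were not, crosses at 0 were not tested, and dotted lines mark a log2 fold change of 1 in either direction. Most members lie to the right in the 2 panels before recovery and near 0 or to the left in the 2 panels after recovery. DKK1, WNT1 and WNT2 are left out because an untreated group held fewer than 6 counts.

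Of the 10 Frizzled receptors, 4 were called higher before recovery in both genotypes (FZD4, FZD5, FZD9 and FZD10) and FZD2 lower. FZD4, a receptor also known in the growth of retinal vessels, stood at 8.89, 10.8 and 11.2 CPM in untreated and 24.2, 23.6 and 24.2 CPM in treated WT cells (log2 1.23 ± 0.10, adjusted p = 4.67e-05). In ID3-KO cells it went from 15.03, 14.3 and 13.99 CPM to 35.4, 38.7 and 37.3 CPM (1.37 ± 0.06, 1.09e-15). The ranges were far apart in both genotypes. FZD5 rose from 9.40 to 10.6 CPM to 24.03 to 25.1 CPM in WT (1.30 ± 0.08, adjusted p = 1.05e-05) and from 12.5 to 12.7 CPM to 25.7 to 27.4 CPM in ID3-KO cells (1.09 ± 0.06, 8.58e-14). FZD9 rose by 1.90 ± 0.12 in WT and 2.20 ± 0.14 in ID3-KO cells, with adjusted p of 1.56e-05 and 7.16e-12. FZD10, the least abundant of the receptors per kb, rose from 0.248 to 0.398 CPM to 1.57 to 1.961 CPM in WT (2.42 ± 0.23, 9.18e-05). In ID3-KO cells FZD10 rose from 1.10 to 1.24 CPM to 3.19 to 4.14 CPM (1.73 ± 0.14, 2.48e-10).

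FZD2, the most abundant receptor per kb, went the other way. Its levels were 56.2, 40.7 and 40.0 CPM in untreated and 19.8, 18.3 and 18.0 CPM in treated WT cells, and 43.9, 42.4 and 41.1 CPM against 20.3, 17.6 and 20.9 CPM in ID3-KO cells. Every treated library lay below every untreated one. The change was -1.28 ± 0.14 in WT (adjusted p = 0.000243) and -1.11 ± 0.06 in ID3-KO cells (1.57e-13). Without replicate 1 of untreated U2OS WT the WT change was -1.10 ± 0.05. FZD1, FZD3, FZD6, FZD7 and FZD8 did not pass the fold threshold before recovery, and their changes lay between -0.07 and 0.70 on the log2 scale.

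Of the co-receptors, ROR2, a receptor for WNT5A, was called higher in both genotypes before recovery. It rose from 10.3, 11.3 and 10.03 CPM to 30.2, 28.2 and 28.5 CPM in WT cells (log2 1.47 ± 0.08, adjusted p = 7.04e-06). In ID3-KO cells it rose from 13.98, 13.3 and 12.9 CPM to 32.0, 28.4 and 30.8 CPM (1.19 ± 0.06, 4.95e-14). ROR1, its paralogue, changed by -0.37 ± 0.21 in WT (adjusted p = 0.182) and -0.01 ± 0.07 in ID3-KO cells (0.892). LRP6 in untreated WT cells was 71.5 CPM in replicate 1 and 136 and 139 CPM in the others, and treated cells had 165 to 167 CPM. Its change was 0.54 ± 0.22 (adjusted p = 0.0824) with that library and 0.28 ± 0.03 (6.13e-10) without it, while ROR1 went to -0.61 ± 0.07 (1.09e-11) without it.

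Of 5 antagonists tested, 4 were called higher before recovery in both genotypes: SFRP1, SFRP4, DKK1 and DKK2. SFRP1 had the highest level of them, at 35.0, 39.5 and 40.0 CPM in untreated and 95.4, 93.4 and 92.8 CPM in treated WT cells, and 38.5, 37.4 and 38.5 CPM against 109, 109 and 111 CPM in ID3-KO cells. The replicates lay close together and the groups far apart, with a log2 fold change of 1.31 ± 0.08 in WT (adjusted p = 9.56e-06) and 1.53 ± 0.04 in ID3-KO cells (2.76e-18). SFRP4, a related antagonist expressed in bone, rose from 1.48 to 1.74 CPM to 7.15 to 7.86 CPM in WT (2.26 ± 0.12, 5.31e-06) and from 2.64 to 2.88 CPM to 8.91 to 10.2 CPM in ID3-KO cells (1.80 ± 0.09, 5.42e-14). DKK3 rose by 0.49 ± 0.07 and 0.39 ± 0.04, below the fold threshold, with adjusted p of 0.000664 and 1.04e-08.

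DKK2, with 15 against 63 counts in WT and 17 against 57 in ID3-KO cells, had ratios of 4.16 (95% counting interval 2.34 to 7.87) and 3.11 (1.78 to 5.70). In WT cells its adjusted p of 0.0356 did not hold when any one of 5 of the 6 libraries was left out (0.0538 to 0.137), which are all but untreated replicate 1. That library held 10 of the 15 untreated counts, and without it the log2 fold change was 2.94 ± 0.67 (adjusted p = 0.000134) against 1.98 with it. Of the R-spondins, RSPO1 rose from 0.108, 0.468 and 0.227 CPM to 1.45, 1.11 and 1.20 CPM in WT cells (2.20 ± 0.42, adjusted p = 0.00348). In ID3-KO cells it rose from 0.349, 0.489 and 0.250 CPM to 1.18, 0.972 and 0.847 CPM (1.45 ± 0.26, 2.79e-05). RSPO3 was called only in ID3-KO cells (1.52 ± 0.34, 0.000351), where treated libraries had 0.487 to 0.877 CPM and untreated ones 0.143 to 0.405 CPM. The difference between the genotypes in the RSPO3 response was 1.14 ± 0.47 with an adjusted p of 0.305. RSPO4, the abundant R-spondin, changed by 0.22 ± 0.10 in WT and 0.07 ± 0.07 in ID3-KO cells and did not pass the test in either. Without replicate 1 of untreated U2OS WT the RSPO4 change was 0.30 ± 0.06 (adjusted p = 1.11e-05), still below the fold threshold, and that of RSPO1 1.80 ± 0.28.

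After recovery fewer members were called, in AID-DIvA cells. In WT cells 1 of 33 members tested was higher (3.03%, against 4.86% of all genes tested) and 6 lower (18.2% against 2.52%). In ID3-KO cells 2 of 35 were higher (5.71% against 4.90%) and 4 lower (11.4% against 2.56%). The median log2 fold change of the members was -0.14 in WT and -0.12 in ID3-KO cells, against 0.00 and -0.02 for all genes. At an adjusted p below 0.05 with no fold threshold, 7 members were higher and 15 lower in WT cells and 9 higher and 13 lower in ID3-KO cells. All genes tested passed that threshold at 23.9% higher and 23.0% lower in WT and 20.2% higher and 19.9% lower in ID3-KO cells, so the members' 21.2% and 25.7% higher lay near the background, and 45.5% and 37.1% were lower.

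DKK1, the LRP5 and LRP6 antagonist whose promoter is shown above, was higher after treatment in all 4 comparisons. After recovery it had 0.338, 0.575 and 0.349 CPM in treated WT cells against 0.0202, 0.103 and 0.0633 CPM in untreated ones, and 0.684, 0.619 and 0.629 CPM against 0.137, 0.1503 and 0.0378 CPM in ID3-KO cells. Its log2 fold change was 2.65 ± 0.44 in WT (adjusted p = 0.000259) and 2.48 ± 0.33 in ID3-KO cells (0.000305), resting on 11 untreated and 62 treated counts in WT. Before recovery it went from 2 to 74 counts in WT (ratio 36.6, 95% counting interval 9.79 to 308) and from 4 to 84 in ID3-KO cells (19.5, 7.33 to 73.1). DKK1 stayed below 1 CPM in all 24 libraries. After recovery too, a low member could pass the filter on low counts through its treated libraries. DKK1 is such a member, and the only member called higher after recovery in WT cells.

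FZD2 and WNT5B were lower in all 4 comparisons. After recovery FZD2 had 21.3, 29.2 and 27.1 CPM in treated against 53.8, 57.5 and 55.9 CPM in untreated WT cells, and 20.8, 23.5 and 21.4 CPM against 46.4, 41.8 and 50.5 CPM in ID3-KO cells. The groups did not overlap, and the change was -1.10 ± 0.09 in WT (adjusted p = 2.59e-06) and -1.08 ± 0.09 in ID3-KO cells (1.99e-05). Without treated replicate 1 the WT change was -0.98, just inside the fold threshold. WNT5B had 3.25, 3.64 and 3.25 CPM against 11.4, 12.3 and 11.9 CPM in WT and 2.08, 2.29 and 1.58 CPM against 6.99, 6.33 and 6.91 CPM in ID3-KO cells. Its fall was 1.81 ± 0.08 in WT (adjusted p = 1.84e-09) and 1.74 ± 0.13 in ID3-KO cells (6.91e-06).

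ROR1, a receptor tyrosine kinase-like protein that binds WNT5A, was lower after recovery in both genotypes. It had 2.80, 2.16 and 2.10 CPM in treated against 6.06, 5.26 and 5.54 CPM in untreated WT cells (log2 -1.24 ± 0.12, adjusted p = 2.11e-06). In ID3-KO cells it had 2.34, 2.43 and 2.30 CPM against 5.39, 4.56 and 4.51 CPM (-1.02 ± 0.11, 6.87e-05). The ID3-KO value fell just short of the fold threshold, between -0.93 and -0.998 without treated replicate 1, treated replicate 3 or untreated replicate 1. WNT10A, a ligand known in tooth and hair development, was called higher only in ID3-KO cells (1.02 ± 0.18, 0.00155), at 3.79, 3.03 and 3.45 CPM against 1.84, 1.22 and 2.04 CPM. It came to 0.97 without treated replicate 1 and 0.81 without untreated replicate 2, and the response did not differ by genotype at an adjusted p of 0.303 (0.56 ± 0.22).

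RSPO1, FZD10 and WNT4 were called in opposite directions at the 2 stages. RSPO1 fell after recovery from 0.343, 0.258 and 0.190 CPM to 0.0752, 0.161 and 0.110 CPM in WT (-1.17 ± 0.40, adjusted p = 0.0283) and from 0.412, 0.355 and 0.245 CPM to 0.143, 0.106 and 0.108 CPM in ID3-KO cells (-1.54 ± 0.34, 0.0054). The groups did not overlap, but the counts were few, 44 against 17 in WT cells and 63 against 17 in ID3-KO cells. The WT call was lost with DESeq2 (adjusted p = 0.156) and without treated replicate 1 or 3 or untreated replicate 1 or 2 (0.0688 to 0.111). FZD10 fell in WT cells from 0.404, 0.395 and 0.380 CPM to 0.169, 0.184 and 0.129 CPM (-1.28 ± 0.29, 0.00279). In ID3-KO cells its change was -0.15 ± 0.31 (0.719), and the difference between the genotypes, 1.13 ± 0.45, had an adjusted p of 0.309. WNT4 fell in WT cells from 0.646, 0.670 and 0.633 CPM to 0.207, 0.391 and 0.166 CPM (-1.38 ± 0.29, 0.00135), and in ID3-KO cells its change of -0.52 ± 0.17 did not pass the fold threshold (0.0371).

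**Figure D3:**
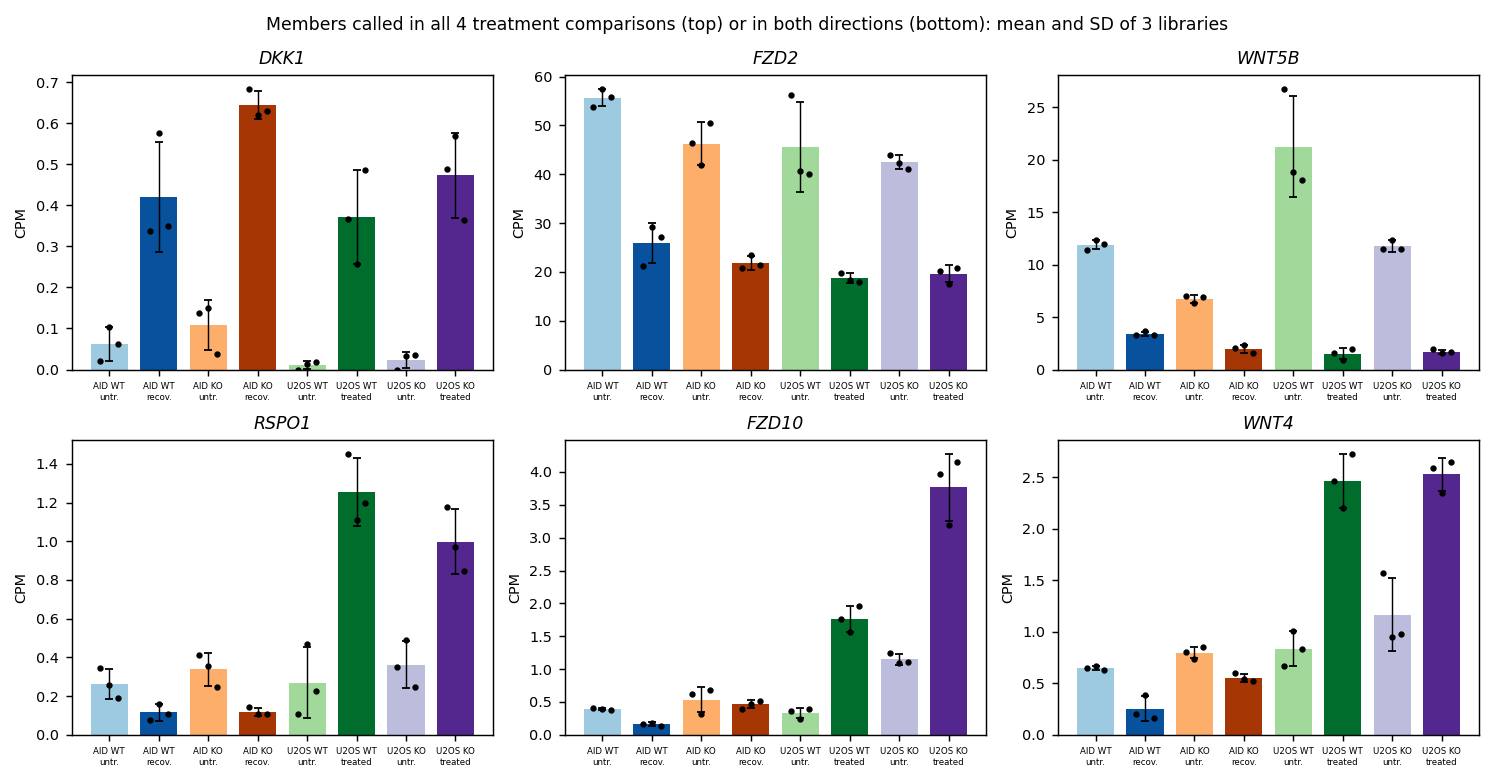
CPM of DKK1, FZD2, WNT5B, RSPO1, FZD10 and WNT4 in the 8 groups, where bars are means, whiskers SD and points the 3 libraries (AID, AID-DIvA; KO, ID3-KO; untr., untreated; recov., treated and recovered). The top row moves the same way in every treated group, and the bottom row rises in treated U2OS cells and falls in treated and recovered AID-DIvA WT cells.

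Members below the fold threshold also moved after recovery. FZD6, the second receptor per kb, fell from 63.1, 60.9 and 66.6 CPM to 41.9, 38.9 and 41.2 CPM in WT (-0.63 ± 0.05, adjusted p = 3.68e-07). In ID3-KO cells it fell from 83.7, 81.2 and 75.1 CPM to 42.2, 48.0 and 47.8 CPM (-0.79 ± 0.08, 5.45e-05). FZD7 fell by 0.89 ± 0.08 and 0.43 ± 0.09 with adjusted p of 7.15e-07 and 0.00331, and FZD8 rose by 0.73 ± 0.10 and 0.95 ± 0.11 with 5.87e-05 and 0.000112. WNT10B, the most abundant ligand per kb, rose in all 4 comparisons by 0.67 ± 0.08, 0.91 ± 0.07, 0.79 ± 0.12 and 0.36 ± 0.07 for AID-DIvA WT, AID-DIvA ID3-KO, U2OS WT and U2OS ID3-KO, with adjusted p of at most 0.00096. WNT5A fell after recovery by 0.52 ± 0.08 in WT and 0.95 ± 0.14 in ID3-KO cells (0.000219 and 0.000504).

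The treatment response was then compared between AID-DIvA cells after recovery and U2OS cells before it, as the difference of the 2 log2 fold changes. In WT cells it differed for 27 of 38 members tested (71.1%, against 42.2% of all genes tested), higher after recovery for 5 and lower for 22. In ID3-KO cells it differed for 30 of 38 (78.9% against 52.5%), higher for 8 and lower for 22. The call here is an adjusted p below 0.05 with no fold threshold. The AID-DIvA treatment comparisons alone tested 33 members in WT and 35 in ID3-KO cells. A low member could thus enter here through its treated U2OS libraries and be called lower. WNT1 in WT and WNT2 in both genotypes were so called while near 0 counts in several groups, and the counts and shares above include them. Both genotypes shared 26 members, which were 26 of the 27 in WT and of the 30 in ID3-KO cells. SFRP1 had a difference of -1.48 ± 0.10 in WT and -1.54 ± 0.07 in ID3-KO cells (adjusted p = 8.73e-08 and 9.16e-12), and changed by -0.17 ± 0.06 and 0.00 ± 0.06 after recovery. FZD4 had -1.61 ± 0.12 and -1.93 ± 0.12 (3.01e-07 and 1.95e-10). WNT5B was among those with a positive difference, 1.97 ± 0.28 and 1.02 ± 0.17 (7.17e-05 and 4.91e-05), with a smaller fall after recovery than before it. The line and the stage cannot be told apart in these values.

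**Figure D4:**
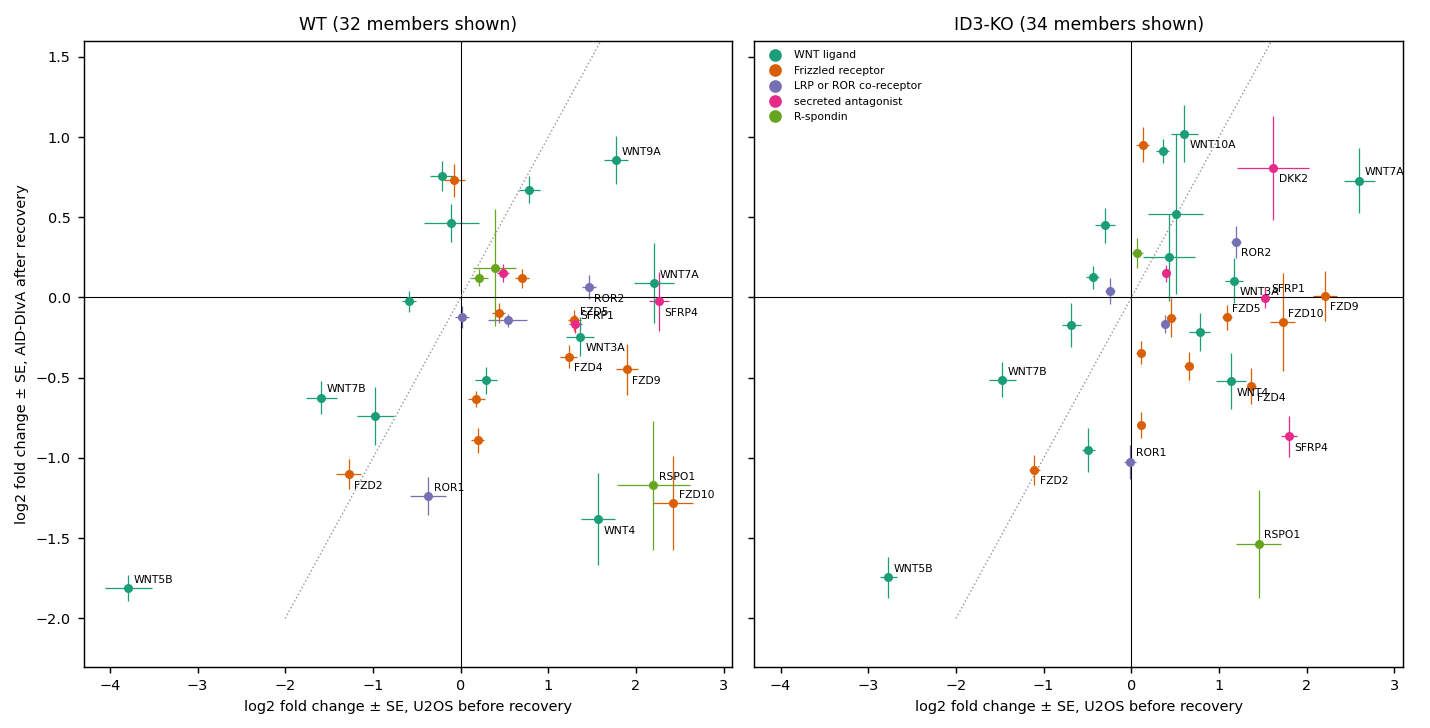
Log2 fold change with its SE before recovery (x axis, U2OS) and after recovery (y axis, AID-DIvA) in WT cells (32 members) and ID3-KO cells (34 members), coloured by role; the dotted line marks equal values, names are given for members with a log2 fold change beyond 1, and DKK1, WNT1 and WNT2 are left out for few untreated counts. Most named members lie to the right of the vertical axis and below the dotted line, while WNT5B and FZD2 are low on both axes.

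The comparison of untreated ID3-KO with WT cells asked what differed without the drug. In AID-DIvA cells 2 of 33 members were called higher (6.06%, against 2.27% of all genes tested) and 1 lower (3.03% against 2.30%). In U2OS cells 2 of 34 were called (5.88%), both of them higher, against 1.42% of all genes tested called higher and 2.84% called lower. With no fold threshold, 11 members were higher and 4 lower in ID3-KO cells at an adjusted p below 0.05 in each line. The share of all genes at that threshold was 18.6% higher and 18.1% lower in AID-DIvA but 6.56% and 8.63% in U2OS, so equal member counts stood against unequal backgrounds. Without replicate 1 of untreated U2OS WT, 15 members were higher and 5 lower in U2OS. The share of all genes in that setting is not given here, so the 15 and 5 are not set against a background. With so few calls past the fold threshold, nothing is read from the shares at that threshold.

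LRP5, the canonical co-receptor, was called higher in ID3-KO cells of both lines. It had 62.0, 55.6 and 64.5 CPM in untreated ID3-KO against 28.8, 26.4 and 25.6 CPM in WT AID-DIvA cells (log2 1.15 ± 0.06, adjusted p = 1.31e-09). In U2OS it had 69.7, 61.9 and 66.3 CPM against 29.8, 34.6 and 32.3 CPM (1.03 ± 0.09, 0.00036). The ID3-KO and WT ranges were separate in both lines, and in treated cells the levels were 51.6 to 70.1 CPM in ID3-KO and 22.7 to 33.6 CPM in WT libraries. In U2OS the difference was 0.97 without replicate 1 of untreated WT and 0.99 without replicate 1 of untreated ID3-KO, just under the fold threshold. SFRP4 was higher in ID3-KO AID-DIvA cells, at 2.75, 2.64 and 2.30 CPM against 1.25, 0.945 and 1.28 CPM (1.13 ± 0.14, 8.62e-06; 0.99 without WT untreated replicate 2), and the U2OS difference was 0.79 ± 0.13 (0.00697). WNT7B was lower, at 2.70, 2.97 and 2.95 CPM against 6.71, 6.84 and 6.47 CPM (-1.24 ± 0.09, 1.48e-08), and in U2OS it was -0.92 ± 0.12 (0.00269).

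FZD10 was called higher in ID3-KO U2OS cells, at 1.24, 1.10 and 1.11 CPM against 0.356, 0.248 and 0.398 CPM (1.79 ± 0.24, adjusted p = 0.00257; 1.86 ± 0.28 without replicate 1 of untreated WT). In AID-DIvA cells FZD10 differed by 0.38 ± 0.28 (0.32), with an overlap between 0.314 to 0.680 CPM and 0.380 to 0.404 CPM. WNT5A, below the fold threshold, was higher in ID3-KO cells by 0.74 ± 0.07 in AID-DIvA and 0.85 ± 0.13 in U2OS (9.09e-07 and 0.00483). WNT5B was lower by 0.85 ± 0.07 and 0.86 ± 0.15 (1.12e-07 and 0.0101). Without replicate 1 of untreated U2OS WT the U2OS differences were 0.73 ± 0.08 for WNT5A and -0.65 ± 0.06 for WNT5B. Whether these genotype differences differ between the lines was not tested.

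The genotype by treatment interaction asked whether ID3-KO and WT cells responded differently to the drug. After recovery 1 of 36 members tested passed an adjusted p below 0.05 (2.78%, against 1.21% of all genes tested). Before recovery 3 of 39 passed (7.69% against 2.15%). WNT9A was the member that passed in both lines. In AID-DIvA it had 1.23, 1.74 and 1.27 CPM in untreated and 2.71, 2.65 and 2.30 CPM in treated and recovered WT cells, and 1.96, 1.79 and 1.89 CPM against 1.74, 1.49 and 1.65 CPM in ID3-KO cells. In U2OS it had 1.502, 1.85 and 1.40 CPM against 5.33, 5.63 and 5.24 CPM in WT and 2.62, 2.95 and 2.73 CPM against 5.56, 4.09 and 4.57 CPM in ID3-KO cells. Its response was thus smaller in ID3-KO cells, by 1.06 ± 0.20 on the log2 scale after recovery (adjusted p = 0.0118) and by 0.98 ± 0.19 before it (0.0138). The U2OS value had an adjusted p of 0.0508 without untreated ID3-KO replicate 2.

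FZD7, a receptor used in canonical signalling, went in U2OS from 26.1, 24.6 and 25.3 CPM to 29.6, 27.5 and 29.3 CPM in WT and from 20.2, 19.3 and 19.2 CPM to 31.1, 30.0 and 30.9 CPM in ID3-KO cells. Untreated levels were lower in ID3-KO cells and treated levels were slightly higher, an interaction of 0.46 ± 0.08 (adjusted p = 0.00869). WNT5A, the ligand of ROR1 and ROR2, went from 5.02, 7.04 and 6.29 CPM to 7.30, 7.32 and 7.65 CPM in WT and from 11.3, 10.96 and 11.02 CPM to 7.63, 7.70 and 8.23 CPM in ID3-KO cells (-0.78 ± 0.14, 0.0107). Treated levels of the 2 genotypes were near each other and untreated ones were not. Without replicate 1 of untreated WT, 8 members passed before recovery: these 3 (WNT9A -0.93, FZD7 0.44 and WNT5A -0.65) and FZD1, ROR1, SFRP1, WNT5B and WNT10B, with interactions of -0.32 ± 0.08, 0.60 ± 0.10, 0.28 ± 0.06, 0.79 ± 0.19 and -0.54 ± 0.11. The share of all genes that passed in that setting is not given here, and the 2.15% above belongs to the fit with that library. Nothing is therefore read from the rise from 3 to 8.

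**Figure D5:**
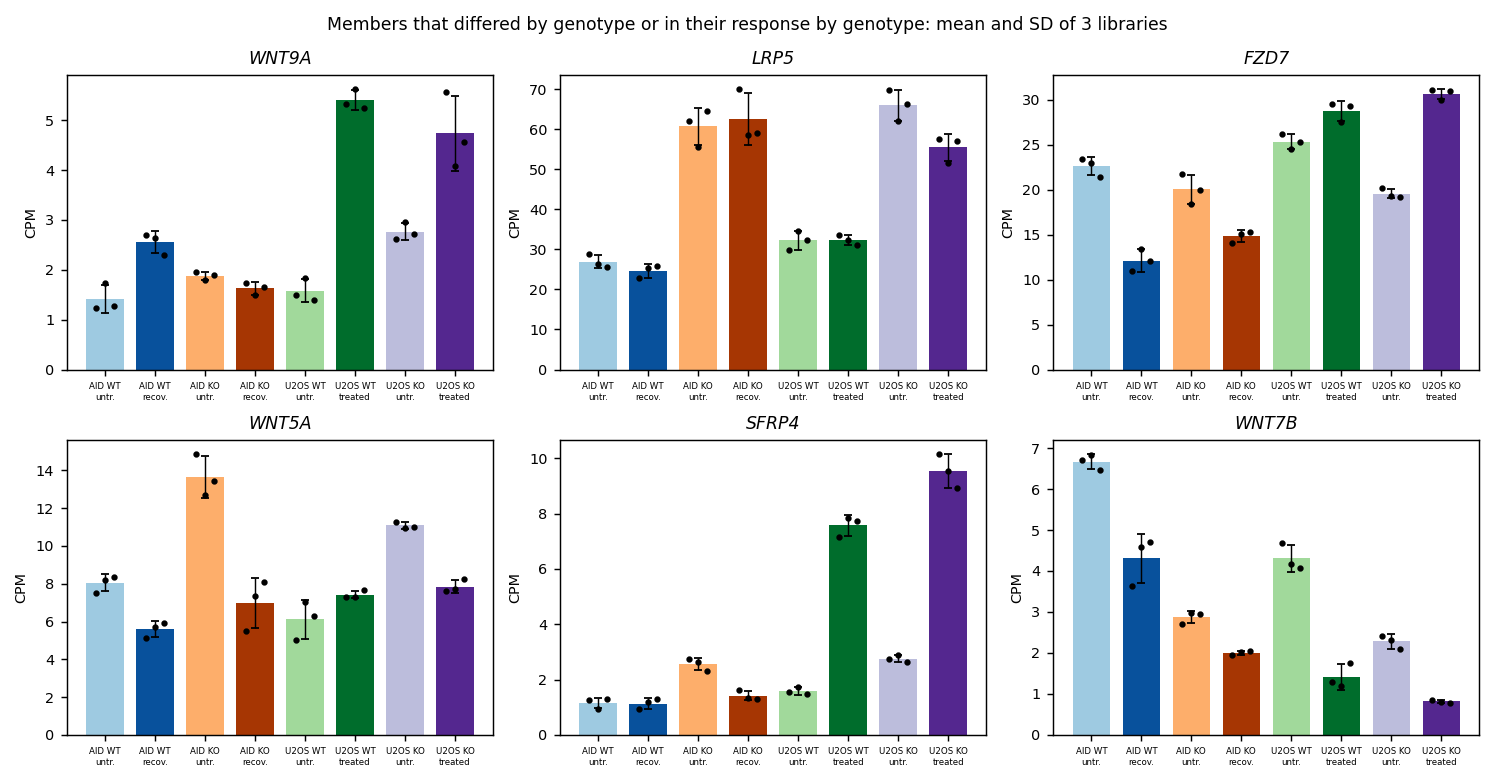
CPM of WNT9A, LRP5, FZD7, WNT5A, SFRP4 and WNT7B in the 8 groups, where bars are means, whiskers SD and points the 3 libraries (AID, AID-DIvA; KO, ID3-KO; untr., untreated; recov., treated and recovered). LRP5 is at 51.6 CPM or more in every ID3-KO library and at 34.6 CPM or less in every WT library, and treated WNT9A exceeds untreated in both WT lines and in U2OS ID3-KO but not in AID-DIvA ID3-KO cells.

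Genes of the pathway that are not members were taken from 4 lists of known components. Of the 22 genes for WNT secretion and receptor turnover, 19 were tested in each treatment comparison. After recovery 3 were called in WT and 4 in ID3-KO cells, all of them lower, and before recovery 4 were higher and 1 lower in WT and 3, all higher, in ID3-KO cells. LGR4, the R-spondin receptor, fell after recovery from 27.9 to 30.4 CPM to 9.58 to 11.1 CPM in WT (-1.53 ± 0.07, adjusted p = 2.07e-09) and from 33.4 to 42.7 CPM to 9.18 to 15.2 CPM in ID3-KO cells (-1.58 ± 0.17, 7.47e-05). SOSTDC1, an antagonist of BMP and WNT, fell by 2.03 ± 0.13 and 1.42 ± 0.22 (4.42e-08 and 0.000756), and GPC4, a cell-surface proteoglycan, by 1.41 ± 0.07 in WT and 1.67 ± 0.07 in ID3-KO cells (6.52e-09 and 3.36e-07). The 3 and 4 genes lower after recovery stood against 2.52% and 2.56% of all genes, and the 4 and 3 of 19 higher before it against 13.6% and 14.6%, near the background. Of the 31 intracellular components, 1 was higher and 1 lower after recovery in WT and 1, higher, in ID3-KO cells, and 2 were higher and 1 lower before recovery in each genotype, shares near or below those of all genes (4.86% and 4.90% higher after recovery, 13.6% and 14.6% before it). NKD2, an inhibitor of Dishevelled, rose after recovery by 1.31 ± 0.07 and 1.58 ± 0.13 (1.62e-08 and 1.5e-05) and in U2OS WT cells from 6.64 to 8.86 CPM to 43.0 to 44.5 CPM (2.56 ± 0.12, 4.63e-06), with 2.44 ± 0.07 in U2OS ID3-KO cells (1.06e-18).

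Of the 17 known beta-catenin targets, which include DKK1, 15 were tested in WT and 14 in ID3-KO cells at each stage. After recovery 2 were higher and 1 lower in WT, and 2 and 2 in ID3-KO cells. Before recovery 3, all higher, were called in WT, and 3 higher and 1 lower in ID3-KO cells. Of all genes, 4.86% and 4.90% were higher and 2.52% and 2.56% lower after recovery. Before it 13.6% and 14.6% were higher and 5.06% and 5.77% lower. The median log2 fold change of the targets in WT and ID3-KO cells was 0.24 and 0.26 after recovery and 0.53 and 0.60 before it. That of all genes was at most 0.01. MYC, a growth regulator, rose after recovery by 1.43 ± 0.04 in WT and 1.65 ± 0.08 in ID3-KO cells (adjusted p = 3.88e-11 and 7.34e-07), while BMP4, a bone morphogenetic protein, fell by 2.06 ± 0.10 in WT (7.06e-08) and 1.03 ± 0.07 in ID3-KO cells (3.09e-06). Before recovery TNFRSF19, a TNF receptor family member, rose from 0.836 to 1.03 CPM to 8.79 to 10.3 CPM in WT (3.31 ± 0.13, 2.31e-06) and by 3.85 ± 0.12 in ID3-KO cells (7.77e-18). NKD1, a feedback inhibitor of WNT signalling, rose by 2.26 ± 0.23 in WT and 2.91 ± 0.07 in ID3-KO cells (0.000163 and 1.53e-19), and BMP4 fell in ID3-KO cells by 1.26 ± 0.05 (5.7e-16). Of the 19 planar polarity and non-canonical genes, 1 was called after recovery in each genotype, lower in both, against 2.52% and 2.56% of all genes. Before recovery 1 was higher in each, with 2 lower in WT and 3 in ID3-KO cells. The 1 higher of 19 lay below the 13.6% and 14.6% of all genes, and the 2 and 3 lower stood against 5.06% and 5.77%. CAMK2B, a calcium-dependent kinase subunit, rose before recovery by 3.22 ± 0.25 and 3.48 ± 0.11 (4.09e-05 and 9.05e-18), and the planar polarity genes PRICKLE1 (-1.69 ± 0.15 and -1.16 ± 0.07) and PRICKLE2 (-1.27 ± 0.09 and -1.37 ± 0.08) fell in both genotypes. The PRICKLE values rest on part of the fragments. In untreated U2OS WT cells PRICKLE1 had 3156 either-strand and 7527 sense counts, and PRICKLE2 3334 and 5241. SOSTDC1 fell in U2OS WT cells by 1.08 ± 0.19 (0.00229), and its change in U2OS ID3-KO cells, -0.63 ± 0.15 (0.000714), did not pass the fold threshold.

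Some members are neighbours in the genome (GRCh37, coordinates of the counts). WNT9A (chromosome 1, 228106357 to 228135599, minus strand) and WNT3A (228194752 to 228248961, plus strand) lie 59152 bases apart. Both rose before recovery in WT, but after recovery WNT9A changed by 0.86 ± 0.15 and WNT3A by -0.24 ± 0.12 in WT cells. WNT10B and WNT1 lie 6851 bases apart on chromosome 12, WNT6 and WNT10A 6129 bases apart on chromosome 2, and WNT3 and WNT9B 46 bases apart on chromosome 17. WNT6 and WNT10A changed by -0.74 ± 0.18 and 0.46 ± 0.12 after recovery in WT cells, in opposite directions. WNT3 passed the adjusted p before recovery with a fall of 0.59 ± 0.08 in WT (0.0008) and 0.44 ± 0.07 in ID3-KO cells (1.13e-05), while its neighbour WNT9B was too low to be tested.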

How the data were processed

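The authors sequenced total RNA from 24 libraries with a stranded kit, paired-end at 100 bp. Per their methods, the Roddy workflow ran STAR on hg19/GRCh37 and featureCounts counted fragments per gene. They deposited raw counts for each library, neither normalized nor pooled, with FPKM and TPM columns that were not used here. Tool versions are not given in the sources used here, and the annotation release named in the methods has identifiers of another form than those deposited, so the symbols and coordinates in the files were used. Counts from either strand were the input.

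Grouping followed the sample titles. Library totals ran from 37878751 to 76906266 counts. edgeR 4.0.16 in R 4.3.3 was run with TMM factors (0.926 to 1.09), filterByExpr and the robust quasi-likelihood F test, with Benjamini-Hochberg adjustment over all genes tested. The standard error is the log2 fold change over the square root of F. Treatment and genotype comparisons were called at an adjusted p under 0.05 plus a log2 change beyond 1 in size, and differences between responses at the adjusted p alone. Libraries of the same group differed beyond sampling noise (chi-square per gene 2.79 to 103, highest in the pairs with replicate 1 of untreated U2OS WT), so none was merged. Treatment and genotype comparisons used the 6 libraries of their groups and differences between responses 12. Intervals on ratios of low counts were exact at 95%.

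The members and gene lists were chosen with earlier results of these data known. Every member called in at least 1 comparison is named, as is the most abundant per kb of each role, with full statistics for those averaging at least 1 CPM. Of the pathway lists together, up to 3 genes per direction and treatment comparison are named, those with the greatest change among genes called and averaging at least 1 CPM. The alternatives were DESeq2 1.42.0, its size factors in edgeR, library totals without TMM for the CPM levels, no low-count filter, reverse-strand counts, no fold threshold, a replicate block and each library left out in turn. The scripts were tested on simulated counts. Promoter sequences are from RefSeq on GRCh38.p14.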

Additional observations from a re-analysis of the deposited data

Results flagged for a closer look

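The differences between responses that passed an adjusted p below 0.05 are listed here as values on the log2 scale. The response of ID3-KO minus that of WT cells was -1.06 for WNT9A after recovery in AID-DIvA. Before recovery in U2OS it was -0.98 for WNT9A, 0.46 for FZD7 and -0.78 for WNT5A.

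The response after recovery in AID-DIvA minus that before recovery in U2OS is given for WT and then ID3-KO cells. Among the Frizzled receptors it was -0.54 and -0.46 for FZD1, -0.59 and -0.59 for FZD3, -1.61 and -1.93 for FZD4, and -1.45 and -1.22 for FZD5. For FZD6 it was -0.82 and -0.91, for FZD7 -1.09 and -1.09, for FZD9 -2.35 and -2.20, and for FZD10 -3.71 and -1.89. FZD8 was the receptor with a positive value, 0.80 and 0.82. The co-receptors had -0.69 and -0.55 (LRP6), -0.88 and -1.02 (ROR1) and -1.41 and -0.85 (ROR2), and LRP5 passed in ID3-KO cells only (0.28). Without replicate 1 of untreated U2OS WT the WT values were -0.43 for LRP6 (adjusted p = 4.73e-07) and -0.64 for ROR1 (0.00039). The antagonists had -0.34 and -0.25 (DKK3), -1.48 and -1.54 (SFRP1) and -2.29 and -2.67 (SFRP4). RSPO1 had -3.38 and -3.00, and RSPO3 -4.16 in ID3-KO cells only. RSPO3 was too low to be tested in the AID-DIvA ID3-KO treatment comparison alone, so its value rests on few counts.

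Ligands with a negative value were WNT3A (-1.61 and -1.07), WNT4 (-2.95 and -1.67), WNT5A (-0.81 and -0.47), WNT7A (-2.12 and -1.88) and WNT9A (-0.92 and -1.01). Ligands with a positive value were WNT2B (0.96 and 0.74), WNT3 (0.56 and 0.56), WNT5B (1.97 and 1.02) and WNT7B (0.95 and 0.95), with WNT6 (0.50) and WNT10B (0.55) in ID3-KO cells only. WNT2 (-7.61 and -8.86) and WNT1 in WT (-10.09) were at or near 0 counts in several groups, so their fitted values depend on the prior count. A member that passed in 1 genotype only is not shown to differ between the genotypes, which was not tested for these values.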

How the results depend on the processing

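Of 1663 values that the alternatives gave for 118 called member results, 1624 kept their direction and their side of the threshold, 39 lost the threshold and 0 reversed. Leaving out 1 library at a time gave 5 to 8 members called for AID-DIvA WT treatment, 4 to 7 for AID-DIvA ID3-KO, 19 to 20 for U2OS WT, 18 to 19 for U2OS ID3-KO, 2 to 3 for untreated genotype in AID-DIvA, 1 to 2 in U2OS, 1 to 2 for the interaction in AID-DIvA, 2 to 8 in U2OS, and 25 to 27 and 28 to 32 for the 2 stages in WT and ID3-KO cells. With no fold threshold 22, 22 and 32 members were called for treatment of AID-DIvA WT, AID-DIvA ID3-KO and U2OS ID3-KO cells, and 15 for genotype in each line, more by construction, against 46.9%, 40.1% and 69.9% of all genes for treatment and 36.7% and 15.2% for genotype in AID-DIvA and U2OS. Reverse-strand counts added WNT2B to both AID-DIvA treatment comparisons (8 and 7 members called). The interaction in AID-DIvA gave 2 members with DESeq2 and 4 with no low-count filter, and that in U2OS 5 with DESeq2, for which the cause was not tested. The replicate numbers did not pair the samples: correlations of same-numbered deviations lay between -0.300 and 0.184, and with the replicate number as a block the counts were the same as reported, 7, 6, 20 and 19 for the 4 treatment comparisons. Between the stages, calls were lost for ROR1 in WT without AID-DIvA treated replicate 3 (adjusted p = 0.0529), LRP6 in WT without any 1 of the 6 AID-DIvA or the 3 treated U2OS libraries (up to 0.0706), WNT6 in ID3-KO without AID-DIvA untreated replicate 1 or U2OS treated replicate 2 (up to 0.0603), WNT2 in ID3-KO without AID-DIvA untreated replicate 2 (0.9998), and LRP5 in ID3-KO without AID-DIvA treated replicate 1 or untreated replicate 2 or U2OS untreated replicate 1 or 3 or treated replicate 2 (up to 0.0955). Members under 1 CPM rest on few counts, and depth limits them.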

Other observations

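The pathway lists also held genes that differed between untreated ID3-KO and WT cells in both lines. They were chosen after their values were seen. PORCN, the acyltransferase that attaches the lipid to WNT proteins, was lower in ID3-KO cells by 1.43 ± 0.08 on the log2 scale in AID-DIvA (adjusted p = 1.51e-09, edgeR) and by 1.52 ± 0.09 in U2OS (8.4e-05). TRABD2B, a protease that inactivates WNT proteins, was higher by 1.34 ± 0.08 and 1.25 ± 0.10 (4.9e-09 and 0.000327), and LGR5, an R-spondin receptor, by 1.51 ± 0.10 and 1.13 ± 0.20 (5.31e-09 and 0.00875). TCF7, a transcription factor of the pathway, was lower by 2.57 ± 0.35 and 2.52 ± 0.24 (2.75e-05 and 0.000549), and SOSTDC1 by 1.59 ± 0.13 and 2.09 ± 0.12 (1.38e-07 and 9.14e-05).

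The genotype by treatment interaction of BMP4 had opposite signs at the 2 stages. It was 1.04 ± 0.13 after recovery in AID-DIvA (adjusted p = 0.000727) and -0.59 ± 0.11 before recovery in U2OS (0.0138). BMP4 went from 80.8 to 85.3 CPM to 15.9 to 22.3 CPM in AID-DIvA WT cells and from 115 to 126 CPM to 55.6 to 60.7 CPM in AID-DIvA ID3-KO cells. In U2OS it went from 73.9 to 88.8 CPM to 47.8 to 52.6 CPM in WT and from 145 to 150 CPM to 56.1 to 64.2 CPM in ID3-KO cells. The difference between the 2 interactions was not tested, and the line and the stage cannot be told apart.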
